A study of Rattus norvegicus with 4 samples.

Results

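Progression of a cell through G1 phase depends on the D cyclins, their kinases and the inhibitors of these kinases. In growing cells, D cyclins (Ccnd1, Ccnd2, Ccnd3) are made in response to growth factors and activate Cdk4 and Cdk6, which phosphorylate the retinoblastoma protein and so release E2F transcription factors for DNA synthesis. Inhibitors of the CIP/KIP family (Cdkn1a, Cdkn1b and Cdkn1c, encoding p21, p27 and p57) bind several cyclin-kinase complexes, whereas those of the INK4 family (Cdkn2b and Cdkn2c, encoding p15 and p18) bind Cdk4 and Cdk6. In skeletal myoblasts, exit from the cell cycle precedes fusion and the expression of contractile genes, and studies in mice have shown that p21 and p57 take part in this exit. These 10 genes, 5 of them cyclins or kinases and 5 of them inhibitors, were chosen by name from the 14217 genes measured. They were represented by 15 probe sets whose annotation held 1 gene symbol, and each gene is given as the mean of its probe sets.

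Gene expression had been measured in cultures of L6, a rat skeletal myoblast line labelled as of Wistar strain. Of the 4 cultures, with 1 Affymetrix rat genome array each, 2 were of L6-HGF myoblasts, as a sheet and as a monolayer, and 2 were of wild type L6-WT myoblasts in the same formats. L6-HGF myoblasts carried human hgf from a retroviral vector and had been selected with puromycin. No empty-vector line is described, so vector, selection and hHGF cannot be told apart, and the sources used here do not say whether L6-HGF was a pool or a clone. Sheets were made by dense plating on thermoreactive dishes, from which they detached intact, so density, dish and detachment cannot be told apart from the sheet format. Since each condition rests on 1 array, differences within a format or a cell line have no replicate check and could not be tested.

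The deposited values are log2 values centred on the median of each probe set over the 4 arrays. They show which array lay above or below another, but no level, so neither the abundance of the 10 genes relative to each other nor the identity of the cells by their markers could be read. As a measure of technical spread, 45 bacterial spike-in probe sets had SDs between 0.12 and 0.22 (log2) in the 4 comparisons, and 0 of them differed by more than 2-fold. These are single probe sets, whereas 4 of the genes are means over more than 1. The L6-HGF sheet array had the widest spread over probe sets, with an SD of 0.28 (log2), as compared to 0.20 to 0.22 on the other 3 arrays. The same L6-HGF sheet array enters both the comparison of the sheets and that of the L6-HGF formats.

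Of the 10 genes, the one with the widest range over the 4 arrays was Ccnd1, which encodes cyclin D1, the D cyclin best known as a target of growth factor signalling. Its centred log2 value was -0.56 in the L6-HGF sheet, 0.36 in the L6-HGF monolayer, -0.35 in the L6-WT sheet and 0.42 in the L6-WT monolayer. Both sheets lay low and both monolayers high. The sheets also lay wholly above or wholly below the monolayers for Ccnd2, Ccnd3, Cdk6, Cdkn1b, Cdkn1c and Cdkn2c, so this order does not set Ccnd1 apart. The share of all genes with such an order was not counted, so it is not read as a trait of these genes. After centring on the spike-in controls, Ccnd2 lost this order and Cdk4 and Cdkn1a gained it. Ccnd1 was 1.90-fold lower in the sheet than in the monolayer of L6-HGF myoblasts and 1.71-fold lower in the sheet than in the monolayer of L6-WT myoblasts, with log2 differences of -0.93 and -0.77. Of all genes, 2.97% were as low or lower in the L6-HGF comparison and 1.30% in the L6-WT comparison. Whether fewer cells expressed the gene or each cell held less of its RNA cannot be told apart in these bulk samples. The 3 probe sets of Ccnd1 showed the same direction in each cell line, between -0.98 and -0.90 in L6-HGF and between -0.87 and -0.69 in L6-WT.

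The probe sets of Ccnd1 did not agree in the comparison of the cell lines. As log2 values, L6-HGF minus L6-WT differences were 0.23, -0.36 and -0.51 for the 3 probe sets in sheets and 0.26, -0.21 and -0.23 for the same probe sets in monolayers. One of them was thus higher in L6-HGF in both formats, whereas the others were lower in both. The gene means of -0.21 in sheets and -0.06 in monolayers average over these opposite directions.

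**Figure D1:**
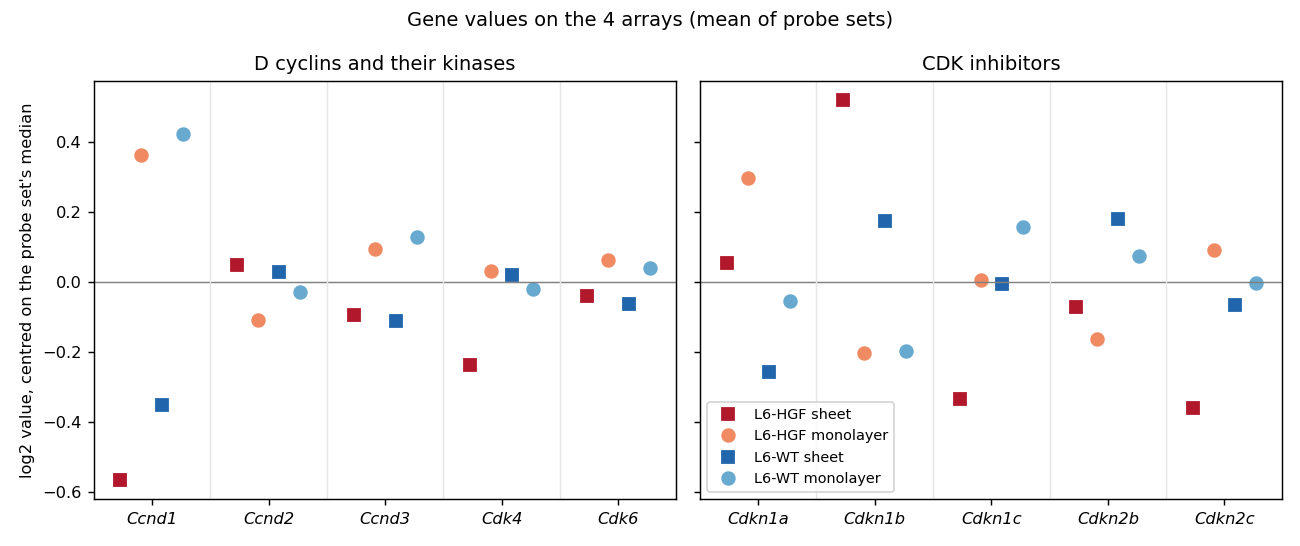
Centred log2 values (vertical axis) of 5 D cyclins and kinases (left) and 5 CDK inhibitors (right) on the 4 arrays, with 1 point per array and gene as the mean of its probe sets. Squares are sheets and circles monolayers. For Ccnd1 both sheets lie below both monolayers, as for Ccnd3, Cdk6, Cdkn1c and Cdkn2c. For Cdkn1b both sheets lie above both monolayers, as for Ccnd2. The share of all genes with such an order was not counted.

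Values of the other D cyclins spread much less. Ccnd2, another D cyclin, had 0.05 in the L6-HGF sheet, -0.11 in the L6-HGF monolayer, 0.03 in the L6-WT sheet and -0.03 in the L6-WT monolayer. Its sheets were the higher, by 0.16 (log2) in L6-HGF and 0.06 in L6-WT, but the direction in L6-WT turned (-0.14) when arrays were centred on the spike-in controls, whose SDs were 0.16 and 0.18 in these comparisons. Ccnd3 encodes cyclin D3, whose protein is known to accumulate in differentiating mouse myoblasts. It had -0.09 in the L6-HGF sheet, 0.09 in the L6-HGF monolayer, -0.11 in the L6-WT sheet and 0.13 in the L6-WT monolayer. Both sheets of Ccnd3 thus lay below both monolayers, as those of Ccnd1 did, with log2 differences of -0.19 in L6-HGF and -0.24 in L6-WT.

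Of the kinases, Cdk4 had its lowest value in the L6-HGF sheet, at -0.24, as compared to 0.03 in the L6-HGF monolayer, 0.02 in the L6-WT sheet and -0.02 in the L6-WT monolayer. Apart from the L6-HGF sheet, the arrays lay within 0.05 (log2) of each other. Cdk4 was 1.20-fold lower in the sheet than in the monolayer of L6-HGF myoblasts and 1.03-fold higher in that of L6-WT myoblasts, a direction that turned (-0.16, log2) when arrays were centred on the spike-in controls. Cdk6, the other kinase that works with D cyclins, had the narrowest range of the 10 genes, 0.12 (log2), and 94.5% of all genes had at least that range. It had -0.04 in the L6-HGF sheet, 0.06 in the L6-HGF monolayer, -0.06 in the L6-WT sheet and 0.04 in the L6-WT monolayer. The sheet minus monolayer difference of Cdk6 was -0.10 in both cell lines, equal within 1e-05 (log2), as it was for 30 of 14217 genes.

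Promoter sequences from RefSeq (build GRCr8) were matched for 6 of the 10 genes, and Ccnd1, Ccnd2, Cdk6 and Cdkn1c were not matched. The 250 bases before the annotated start of Cdk4, on the plus strand at chr7:64771203-64771452, are shown because they held 3 copies of CACGTG, the E-box sequence that MYC family proteins are known to bind. In human cells, CDK4 has been described as a MYC target. Capitals mark these copies, which read the same on both strands.
Cdk4: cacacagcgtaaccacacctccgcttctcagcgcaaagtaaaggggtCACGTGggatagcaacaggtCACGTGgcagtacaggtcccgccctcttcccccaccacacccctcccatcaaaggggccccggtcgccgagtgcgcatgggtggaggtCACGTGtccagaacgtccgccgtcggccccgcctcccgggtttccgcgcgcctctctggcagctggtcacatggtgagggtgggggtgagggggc
Of 33469 promoters of the same length, 5.59% held CACGTG at least once, and the promoters of Ccnd3, Cdkn1a, Cdkn1b, Cdkn2b and Cdkn2c held 0 copies. Myc, which encodes the best known of these proteins, had a log2 difference of 0.88 between the L6-HGF and L6-WT sheets, where Cdk4 had -0.26. Between the monolayers, Myc had -0.05 and Cdk4 0.05. Mycn, of the same family, had -0.53 between the sheets and -0.33 between the monolayers, and the MYC antagonist Mxi1 had 0.68 and -0.15. The part of these genes in the Cdk4 difference was not tested. A match is a sequence feature only, and binding was not measured.

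Among the inhibitors, Cdkn1b had the widest range. It encodes p27, which holds back cyclin E and cyclin A complexes of Cdk2 and is known to accumulate in resting and crowded cells, largely through slower degradation of the protein. Its value was 0.52 in the L6-HGF sheet, -0.20 in the L6-HGF monolayer, 0.17 in the L6-WT sheet and -0.20 in the L6-WT monolayer. Both sheets were above both monolayers, the L6-HGF sheet stood highest, and the L6-HGF monolayer differed from the L6-WT monolayer by -0.0044 (log2). Cdkn1b was 1.65-fold higher in the sheet than in the monolayer of L6-HGF myoblasts and 1.29-fold higher in the sheet than in the monolayer of L6-WT myoblasts. As high or higher were 2.42% of all genes in the L6-HGF comparison and 10.5% in the L6-WT comparison. Its 2 probe sets had the same direction, with log2 differences of 0.54 and 0.90 in L6-HGF and of 0.33 and 0.41 in L6-WT. After centring on the spike-in controls, the gene mean differed by 0.60 in place of 0.72 in L6-HGF. In L6-WT it differed by 0.17 in place of 0.37, less than the SD of 0.18 of these controls. Between the sheets Cdkn1b was 1.27-fold higher in L6-HGF, with 0.26 and 0.43 (log2) from the 2 probe sets.

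The 250 bases before the start of Cdkn1b, on the plus strand at chr4:169491254-169491503, are shown because this gene had the widest range of the inhibitors. Capitals mark the GC box GGGCGG, a sequence bound by the Sp1 family, and the CCAAT box, bound by NF-Y, each searched on both strands, so that ATTGG marks a CCAAT box on the minus strand.
Cdkn1b: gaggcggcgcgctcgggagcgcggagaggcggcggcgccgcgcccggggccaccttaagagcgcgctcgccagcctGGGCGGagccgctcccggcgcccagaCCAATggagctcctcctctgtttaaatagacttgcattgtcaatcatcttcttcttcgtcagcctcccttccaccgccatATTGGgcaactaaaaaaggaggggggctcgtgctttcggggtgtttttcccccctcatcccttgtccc
This window held 1 GC box and 2 CCAAT boxes, which do not overlap each other. Of all promoters, 30.5% held a GC box and 34.0% a CCAAT box. The GC box was also found in the windows of Ccnd3, Cdk4, Cdkn2b and Cdkn2c and the CCAAT box in that of Ccnd3.

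Read together, Cdkn1b and Ccnd1 moved in opposite directions between sheet and monolayer. The ratio of Cdkn1b to Ccnd1 was 3.14-fold higher in the sheet than in the monolayer of L6-HGF myoblasts and 2.21-fold higher in that of L6-WT myoblasts. This pair was chosen after its values were seen.

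**Figure D2:**
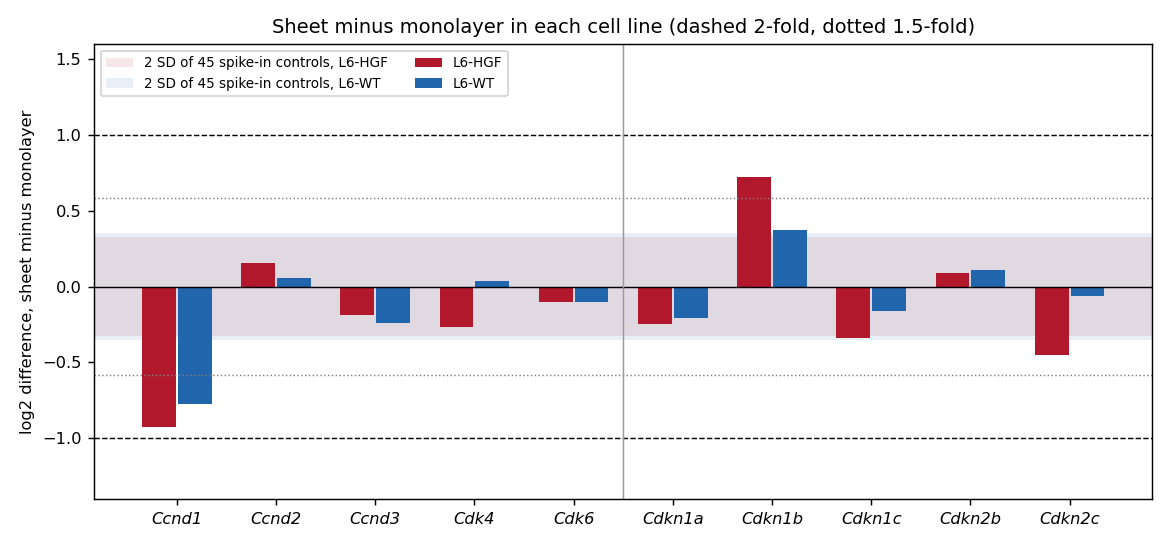
Log2 difference between sheet and monolayer (vertical axis) for the 10 genes in L6-HGF and in L6-WT myoblasts, from single arrays. Dashed lines mark 2-fold, dotted lines 1.5-fold and shading 2 SD of 45 spike-in probe sets. Shading is centred on 0, whereas the spike-in probe sets averaged 0.12 in L6-HGF and 0.20 in L6-WT. Ccnd1 lies past 1.5-fold in both cell lines, at -0.93 and -0.77, and Cdkn1b in L6-HGF, at 0.72.

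Cdkn1a encodes p21, an inhibitor that p53 and, in mouse myoblasts, MyoD are known to induce. With the deposited scaling, its values separated the cell lines rather than the formats. Its value was 0.05 in the L6-HGF sheet, 0.30 in the L6-HGF monolayer, -0.26 in the L6-WT sheet and -0.05 in the L6-WT monolayer. Both L6-HGF arrays lay above both L6-WT arrays. The share of all genes whose L6-HGF arrays lay wholly above or below the L6-WT arrays was not counted. After centring on the spike-in controls, this order was lost, and both sheets lay below both monolayers. The log2 differences were then 0.26 between the monolayers, and -0.36 in L6-HGF and -0.40 in L6-WT between the formats. Relative to L6-WT, Cdkn1a in L6-HGF was 1.24-fold higher in sheets and 1.27-fold higher in monolayers, where 9.02% and 5.85% of all genes were as high or higher. Its probe sets had 0.32 and 0.30 (log2) in sheets, but 0.57 and 0.14 in monolayers, so that the size of the monolayer difference rests mostly on 1 of them. In the sheets Cdkn1a was lower than in the monolayers, by 1.18-fold in L6-HGF and 1.15-fold in L6-WT, which is the direction opposite to that of Cdkn1b.

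Cdkn1c, which encodes p57, had -0.33 in the L6-HGF sheet, 0.0049 in the L6-HGF monolayer, -0.0049 in the L6-WT sheet and 0.16 in the L6-WT monolayer. The L6-HGF sheet lay lowest, and in each cell line the sheet was below the monolayer. Cdkn1c was 1.26-fold lower in the sheet than in the monolayer of L6-HGF myoblasts and 1.12-fold lower in that of L6-WT myoblasts. It was also lower in L6-HGF than in L6-WT in both formats, by 1.26-fold in sheets and 1.11-fold in monolayers. Of the 3 CIP/KIP genes, Cdkn1b was thus higher in the sheet than in the monolayer in both cell lines, whereas Cdkn1a and Cdkn1c were lower.

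Of the INK4 genes, Cdkn2b is known to respond to TGF-beta and encodes p15. It had -0.07 in the L6-HGF sheet, -0.16 in the L6-HGF monolayer, 0.18 in the L6-WT sheet and 0.07 in the L6-WT monolayer. Both L6-HGF arrays lay below both L6-WT arrays, an order whose share over all genes was not counted. Cdkn2b was 1.19-fold lower in L6-HGF in sheets and 1.18-fold lower in monolayers, the direction opposite to that of Cdkn1a. Of all genes, 16.6% and 12.4% were as low or lower. The sheet minus monolayer differences were 0.09 (log2) in L6-HGF and 0.11 in L6-WT, and both turned when arrays were centred on the spike-in controls, to -0.03 and -0.09.

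Cdkn2c encodes p18, an INK4 inhibitor linked to differentiation of mouse myoblasts. Its gene mean was -0.36 in the L6-HGF sheet, 0.09 in the L6-HGF monolayer, -0.07 in the L6-WT sheet and -0.0018 in the L6-WT monolayer. The L6-HGF sheet stood lowest, but the 2 probe sets did not share this. On the first the value was -0.77 in the L6-HGF sheet, 0.15 in the L6-HGF monolayer, -0.10 in the L6-WT sheet and 0.10 in the L6-WT monolayer. On the second, whose _x_at suffix marks probes that can match other transcripts, it was 0.05 in the L6-HGF sheet, 0.03 in the L6-HGF monolayer, -0.03 in the L6-WT sheet and -0.10 in the L6-WT monolayer. Without the _x_at probe set, the sheet minus monolayer difference of Cdkn2c in L6-HGF was -0.92 (log2) in place of -0.45, and the L6-HGF minus L6-WT difference in sheets was -0.67 in place of -0.30. How far Cdkn2c differed in the L6-HGF sheet therefore depends on the probe set.

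**Figure D3:**
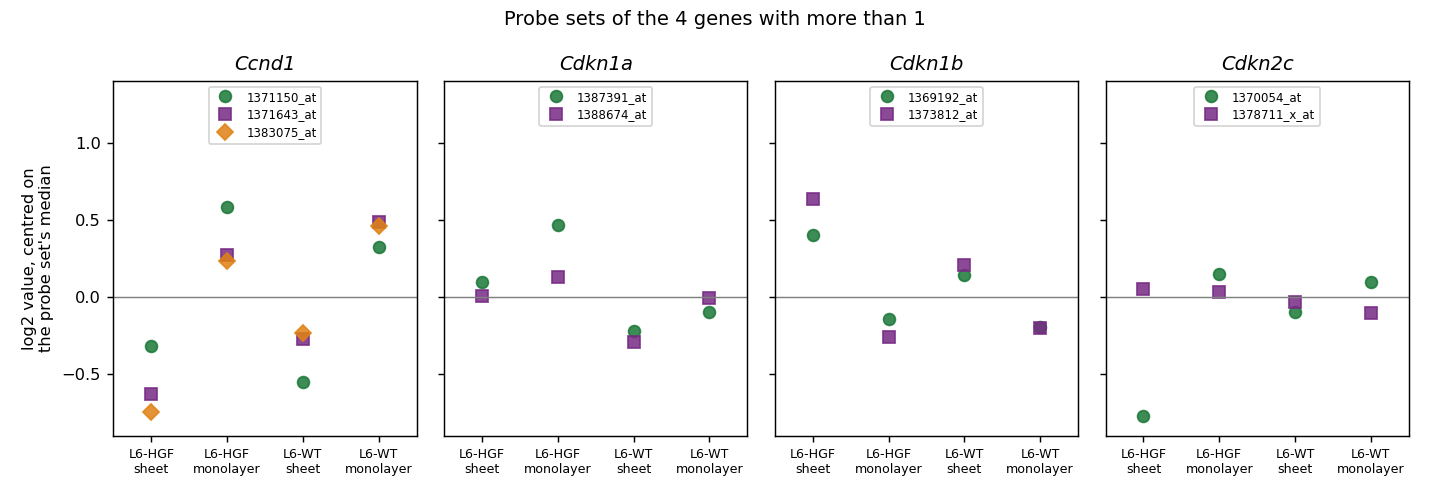
Centred log2 values (vertical axis) of each probe set of the 4 genes with more than 1, on the 4 arrays (horizontal axis). The 3 probe sets of Ccnd1 separate sheets from monolayers, and in the L6-HGF sheet the 2 probe sets of Cdkn2c lie apart, at -0.77 and 0.05.

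Over all 10 genes, differences between formats were below 2-fold. In L6-HGF myoblasts, 0 of 10 passed 2-fold between sheet and monolayer, whereas 1.17% of all genes were higher and 2.57% lower by that much. Past 1.5-fold, Cdkn1b was higher, as were 4.02% of all genes, and Ccnd1 was lower, as were 7.28%, and Cdkn2c without its _x_at probe set (-0.92, log2) was lower by more than 1.5-fold as well. In L6-WT myoblasts, 0 of 10 passed 2-fold, against 0.717% of all genes higher and 0.492% lower, and past 1.5-fold Ccnd1 was lower, as were 3.76% of all genes, while 0 were higher against 3.37%. These shares in the members are counts of 1 or 2 genes and are given as a description. Past 2 SD of the spike-in controls, taken around 0, were 4 of the 10 genes in L6-HGF and 2 in L6-WT. Of all genes, 29.8% and 23.0% were past it. The median log2 difference of the cyclins and kinases was -0.19 in L6-HGF and -0.10 in L6-WT, and that of the inhibitors was -0.24 and -0.06, as compared to a median of 0.03 over all genes in each cell line. Of the inhibitors, 2 were above 0 and 3 below 0 in each cell line, and of the cyclins and kinases 1 was above 0 in L6-HGF and 2 in L6-WT, counts that change with the turned directions of Ccnd2, Cdk4 and Cdkn2b given above.

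Between the cell lines, no gene mean of the 10 genes differed by more than 0.35 (log2), but Cdkn2c without its _x_at probe set differed by -0.67 in sheets, which is past 1.5-fold and past 2 SD of the spike-in controls. In sheets 0 of the 10 genes passed 2-fold, as compared to 0.492% of all genes higher and 0.95% lower in L6-HGF, and 0 passed 1.5-fold, as compared to 2.2% higher and 3.58% lower. In monolayers 0 of the 10 genes passed 2-fold, as compared to 0.225% higher and 0.309% lower, and 0 passed 1.5-fold, as compared to 1.22% and 1.29%. The 5 cyclins and kinases lay between -0.26 and 0.02 (log2) in sheets and between -0.08 and 0.05 in monolayers. The inhibitors spread further, between -0.33 and 0.35 in sheets and between -0.23 and 0.35 in monolayers. With all probe sets, 1 of the 10 genes in monolayers, Cdkn1a, and 0 in sheets exceeded 2 SD of the spike-in controls, and 24.3% of all genes did so in monolayers and 11.2% in sheets.

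**Figure D4:**
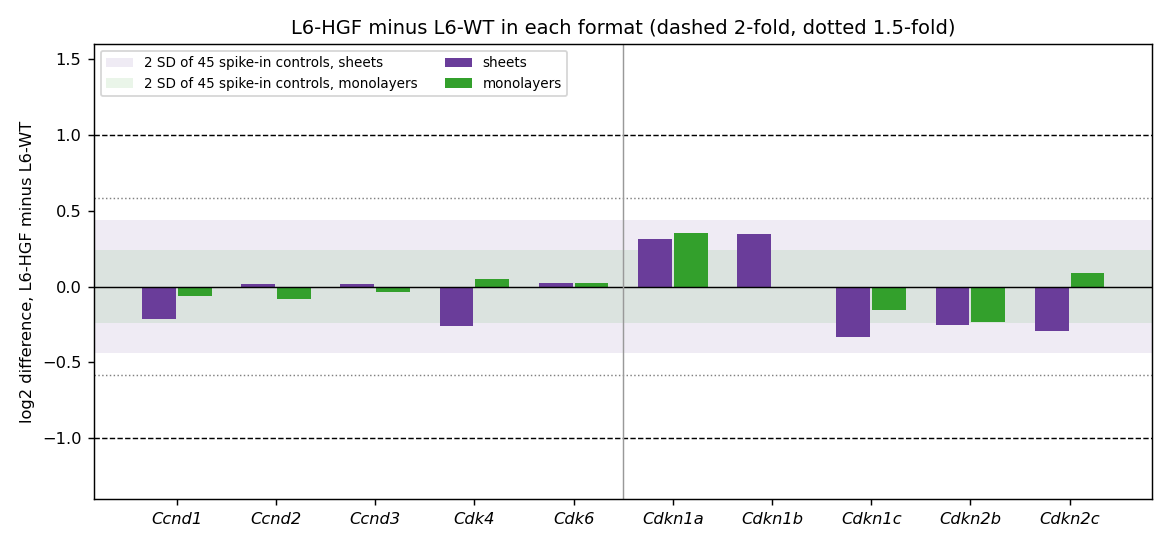
L6-HGF minus L6-WT log2 difference (vertical axis) of the 10 genes in sheets and in monolayers, from single arrays. Dashed lines mark 2-fold, dotted lines 1.5-fold and shading 2 SD of 45 spike-in probe sets. Shading is centred on 0, whereas the spike-in probe sets averaged 0.0058 in sheets and 0.087 in monolayers. Cdkn1a is higher in L6-HGF in both formats, at 0.31 and 0.35, and Cdkn2b lower in both, at -0.25 and -0.23.

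The effect of hHGF was then set against the format. In sheets as compared to monolayers, the L6-HGF minus L6-WT difference was higher by 0.35 (log2) for Cdkn1b and lower by 0.39 for Cdkn2c, by 0.31 for Cdk4 and by 0.18 for Cdkn1c. For the other 6 genes it changed by between -0.15 and 0.10. The SD of the spike-in controls under the same contrast was 0.19, 0 of the 10 genes exceeded 2 such SDs, and 17.9% of all genes did. Cdkn2c lay just within this bound, at -0.3876 against 0.3888. Past this bound were Cdkn2c without its _x_at probe set, at -0.72, and Cdkn1b when arrays were centred on the spike-in controls, at 0.43. The design leaves no residual degree of freedom for a test of this change.

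A limma model over all 14217 genes and 4 arrays, with terms for cells and format and 1 residual degree of freedom, was the one test the design allowed. That residual is the change of the L6-HGF minus L6-WT difference between formats, moderated over all genes. The SE and p values below therefore do not measure spread between replicate cultures, and a true change of this kind would enter them. The term for cells, called the hHGF effect, also holds vector and selection. For the sheet effect common to both cell lines, 0 of the 10 genes had an adjusted p under 0.05 and 2 had an unadjusted p under 0.05, as compared to 0.0141% of all genes at the adjusted threshold and 24.4% at the unadjusted one. Ccnd1 had a log2 difference of -0.85 ± 0.10 (SE) with an adjusted p from limma of 0.115, and Cdkn1b had 0.55 ± 0.13 with 0.14. The call for Ccnd1 depended on the scaling, since its adjusted p from limma was 0.0326 after quantile normalization and 0.0166 when arrays were centred on the spike-in controls, and it lay between 0.0166 and 0.142 over the 4 alternatives run at gene level. For the hHGF effect shared by sheets and monolayers, 0 of the 10 genes passed, as did 0% of all genes, and 1 of the 10 and 9.23% of all genes had an unadjusted p under 0.05. The smallest adjusted p from limma among the 10 genes was 0.531, for Cdkn1a, with a log2 difference of 0.33 ± 0.10 (SE). The spike-in controls were on average 0.12 (log2) higher in the sheet than in the monolayer of L6-HGF and 0.20 higher in that of L6-WT, so that centring on them lowers every sheet minus monolayer difference by these amounts.

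The genes that act next to the 10 in the cycle were read in the same way, from lists chosen with earlier results of these data known. Of 14 E2F target genes of DNA synthesis on the list, 11 were measured. All 11 were lower by more than 2-fold in the sheet than in the monolayer of L6-HGF myoblasts, against 2.57% of all genes. They lay between 2.07-fold for Pcna, the sliding clamp of the replication fork, and 4.33-fold for the licensing factor Cdt1. The other 9, Mcm2 to Mcm7, Rrm1, Tyms and Tk1, lay between these. In L6-WT myoblasts all 11 were below 0 as well but within 2-fold, with a median log2 difference of -0.57 as compared to -1.46 in L6-HGF. Over all genes the median was 0.03 in each cell line. Between cell lines, this list had a median of -0.75 in sheets and 0.15 in monolayers, as compared to -0.02 and 0.0016 over all genes. In either format, 0 of its genes were past 2-fold.

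Of 12 RB and E2F family genes, 4 were lower and 0 higher by more than 2-fold in the L6-HGF sheet than in its monolayer. In L6-WT, 3 were lower. Of all genes, 2.57% were lower and 1.17% higher in L6-HGF, and 0.492% were lower in L6-WT. E2f8 and E2f7, which repress transcription and are themselves made in S phase, had log2 differences of -2.65 and -1.98 in L6-HGF and -1.11 and -0.94 in L6-WT. E2f2 had -1.86 and -1.17, the pocket protein Rbl1 -1.37 and -0.38, and the E2F partner Tfdp2 -0.84 and -1.01. Rb1 itself had 0.06 and -0.34. Between cell lines, E2f7 (-1.29) and E2f8 (-1.21) were past 2-fold in sheets and Tfdp2 (-1.13) in monolayers. Of 6 genes of cyclin E, cyclin A and Cdk2, Ccna2, the S phase and G2 phase cyclin, was the one past 2-fold, at -2.52 in the L6-HGF sheet as compared to its monolayer and at -1.27 in L6-HGF as compared to L6-WT sheets. Ccne1, the partner of Cdk2 at the start of S phase, had -0.87 in L6-HGF and -0.01 in L6-WT between formats.

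**Figure D5:**
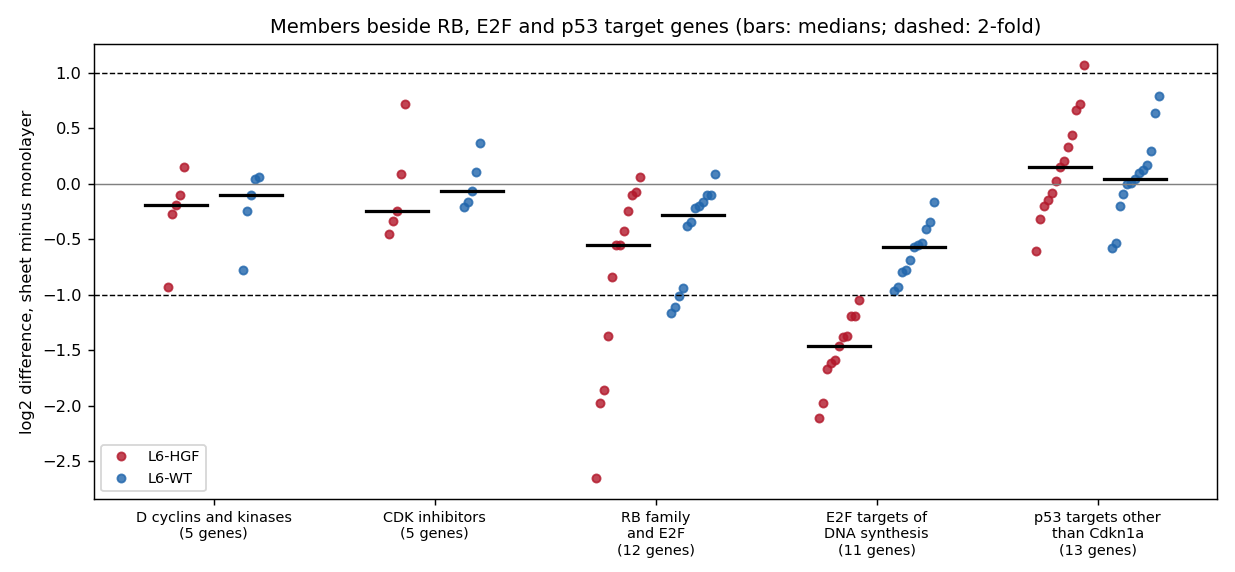
Log2 difference between sheet and monolayer (vertical axis) for D cyclins and kinases, CDK inhibitors, and 3 gene lists that act with them, in L6-HGF and L6-WT myoblasts, each point being a gene and each bar a median. Dashed lines mark 2-fold. All 11 E2F target genes lie below -1 in L6-HGF, whereas the 10 cyclins, kinases and inhibitors lie between -0.93 and 0.72.

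Of 3 CDK inhibitors outside the 10 genes, 2 were lower by more than 2-fold in the L6-HGF sheet than in its monolayer. This held for 2.57% of all genes. Cdkn3, a phosphatase that acts on Cdk2 and is made late in the cycle, had log2 differences of -1.71 between sheet and monolayer of L6-HGF and of -1.33 between L6-HGF and L6-WT sheets. Cdkn2d, an INK4 inhibitor, had -1.04 and -0.79 in the same comparisons, and in L6-WT the differences between formats were -0.0069 for Cdkn3 and -0.0038 for Cdkn2d. Of 6 genes of p27 ubiquitination, Cks2, a small protein that binds Cdk complexes, was lower by more than 2-fold in the L6-HGF sheet, at -1.05 against its monolayer and -1.07 against the L6-WT sheet. Its relative Cks1b, the cofactor through which p27 is recognised, had -0.77 and -0.74. The 3 genes of the CDK-activating kinase stayed within 2-fold, and the largest values were 0.48 for Ccnh and 0.43 for Cdk7, both between the formats of L6-WT.

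Of 13 p53 target genes other than Cdkn1a, Gadd45a was the one past 2-fold, with 1.08 (log2) between sheet and monolayer of L6-HGF. Their median differences between L6-HGF and L6-WT were 0.09 in sheets and 0.16 in monolayers, where Cdkn1a had 0.31 and 0.35. In sheets 9 of them were above 0 and 4 below. Sesn2 (0.66), Mdm2 (0.61), Bbc3 (0.48), Ccng1 (0.42) and Gadd45a (0.37) exceeded Cdkn1a there. In monolayers 7 were above 0 and 6 below, and the highest was Phlda3, at 0.27. The part of p53 in the Cdkn1a difference was not tested. Of 18 regulators of D cyclin and inhibitor transcription, Mxi1, a MYC antagonist, was higher (1.54) and the early response factor Egr1 lower (-2.84) by more than 2-fold in the L6-HGF sheet than in its monolayer, and Egr1 was also lower in L6-HGF than in L6-WT sheets (-2.32). Foxo3, a transcription factor known to induce Cdkn1b, had 0.05 and -0.03 between formats in L6-HGF and L6-WT, where Cdkn1b had 0.72 and 0.37. Its relatives Foxo1 and Foxo4 were above 0 in both cell lines, at 0.14 and 0.12 for Foxo1 and 0.16 and 0.22 for Foxo4. The part of these factors in the Cdkn1b difference was not tested.

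Of the 7 marker genes of differentiating muscle, 2 were lower by more than 2-fold in L6-HGF than in L6-WT sheets and 3 in monolayers. Of all genes, 0.95% and 0.309% were lower by that much. The muscle markers had medians of -0.37 and -0.70 (log2), as compared to -0.02 and 0.0016 over all genes. Acta1, skeletal alpha-actin, had -2.01 in sheets and -1.64 in monolayers, the fusion protein Mymk -1.002 and -1.28, and the embryonic myosin Myh3 -0.36 and -1.88, and Myh3 was also lower in the sheet than in the monolayer of L6-WT (-1.30). The 7 fibroblast markers had medians of -0.61 and -0.23, and Dpt and Postn were lower by more than 2-fold in each format. Between sheet and monolayer, 3 of the 7 fibroblast markers were above 0 in L6-HGF and 4 in L6-WT, with medians of -0.28 and 0.0066, and the lowest was Col1a1, at -0.86 and -0.43. Past 2-fold were Dpt, Postn and Lum, with log2 differences of 3.48, 2.84 and 1.04 in L6-HGF and of 3.34, 2.50 and 2.07 in L6-WT. Of all genes, 1.17% in L6-HGF and 0.717% in L6-WT were higher by more than 2-fold. The 5 myoblast, 3 endothelial and 4 macrophage markers had 0 genes past 2-fold in any comparison. The signal at the 3′ end of the control transcripts of actin, Gapdh and hexokinase relative to that at the 5′ end was higher in sheet than in monolayer by 0.20, 0.10 and 0.29 (log2) in L6-HGF and by 0.17, 0.00056 and 0.31 in L6-WT. The part of these markers and of RNA integrity in the differences of the 10 genes was not tested.

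The 3 genes closest to Ccnd1 over the 4 arrays, by Euclidean distance of the centred log2 values, were Hcfc1 (0.04), Nnt (0.06) and Slc3a1 (0.07). Closest to Cdkn1b were Trim47 (0.05), Hsd17b11 (0.06) and Tcp11l2 (0.06). With 4 arrays and 14217 genes, such short distances are a description of these arrays only.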

How the data were processed

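Affymetrix rat genome arrays were hybridised with RNA of 4 cultures. The authors normalized them with RMA, which the submitters' processing notes also name (version not given in the sources used here), and deposited log2 values centred on the median of each probe set. That these are logarithms to base 2 was checked on fold differences listed by the study. Of 31099 probe sets, 57 were controls and 31042 were compared. The array annotation gave 1 gene symbol for 20826, several for 436 and none for 9780. Differences were taken as L6-HGF minus L6-WT and sheet minus monolayer, with 2-fold as threshold. The number of arrays limits the precision. limma (version 3.58.1, in R 4.3.3) was fitted on gene means, with Benjamini-Hochberg adjustment over all genes, after a test on simulated data. Other steps used Python 3.11.15, pandas 2.3.3, numpy 2.4.6 and matplotlib 3.10.9. Alternatives were quantile normalization (which here acts on centred values), centring on the spike-in controls, the median of probe sets, leaving out _x_at, _s_at and _a_at probe sets, 1.5-fold as threshold, limma with only the term tested and limma on probe sets. Members, gene lists and markers were chosen with earlier results of these data known. By rule, the 10 genes, list genes past 2-fold, the 2 largest differences of lists with none, and the 3 genes closest to the widest-ranging cyclin or kinase and inhibitor are named. For room, the 2 largest are given for only some lists. Rb1, Ccne1, Cks1b, Foxo1, Foxo3, Foxo4, Myc, Mycn, Sesn2, Mdm2, Bbc3, Ccng1 and Phlda3 were added after their values were seen.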

Additional observations from a re-analysis of the deposited data

Results flagged for a closer look

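For 5 of the 10 genes, the L6-HGF minus L6-WT difference had opposite directions in sheets and in monolayers, as it had for 42.1% of all genes. Each direction rests on 1 array per condition, and the change between formats was not tested. For Cdkn1b the difference was 0.35 (log2) in sheets and -0.0044 in monolayers (0.02 after quantile normalization), a change of 0.35, and for Cdkn2c it was -0.30 and 0.09, a change of -0.39. Cdk4 had -0.26 in sheets and 0.05 in monolayers, a change of -0.31, and was also the one gene whose sheet minus monolayer difference had opposite directions in the cell lines (28.9% of all genes), at -0.27 in L6-HGF and 0.04 in L6-WT. When arrays were centred on the spike-in controls, Cdk4 was -0.04 between the monolayers and -0.16 between the formats of L6-WT, and its directions were no longer opposite. The remaining differences were 0.02 in sheets and -0.08 in monolayers for Ccnd2 and 0.02 and -0.04 for Ccnd3. Their changes were 0.10 for Ccnd2 and 0.054 for Ccnd3, both smaller than the SD of 0.19 of the spike-in controls under this contrast. By probe set, the change of Cdkn2c was -0.72 and, for the _x_at probe set, -0.05.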

How the results depend on the processing

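With 1 array per condition, no replicate could be left out and no replicate numbers pair the arrays, while the limma model with both terms already compares formats within each cell line. When arrays were centred on the spike-in controls, 1 gene, Ccnd1, passed 2-fold between sheet and monolayer of L6-HGF, and the medians in L6-WT moved to -0.30 for the cyclins and kinases and -0.26 for the inhibitors. At 1.5-fold, 2 genes passed in L6-HGF and 1 in L6-WT between formats. Without probe sets that can match several transcripts, the change of the hHGF difference of Cdkn2c between formats was -0.72 (log2). For the sheet effect, limma called 1 of the 10 genes, Ccnd1, after quantile normalization and 1 after centring on the spike-in controls. Over all genes, the sheet effect was called in 2 genes, in 586 after quantile normalization, in 1845 after centring on the spike-in controls and in 0 under each of the other alternatives, and the hHGF effect in 0 genes, in 2 after quantile normalization, in 2 after that centring and in 0 otherwise. The cause was not tested. The other 94 summary values under alternatives stayed within 1.5 times the count or 1 SD of the spike-in controls. Of 160 single differences under alternatives, 147 moved by less than 1 SD, and 13 moved by more. Many of these, and some of the 94 summary values, could not move, so the counts do not measure robustness. The median of probe sets can differ from the mean only for Ccnd1, and leaving out probe sets changes only Cdkn2c. Centring on the spike-in controls shifts all genes of a comparison alike. That shift exceeded 1 SD only between the formats of L6-WT (0.20 against 0.18). Of the 160, 7 changed sign, 6 of them when centred on the spike-in controls. The largest difference that changed sign was 0.11 (log2).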
